A study of Mus musculus with 6 samples.

Results

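The genes described here are the mouse zinc finger genes named Zfp and a number whose log2 signal averaged at least 10 over the 6 arrays of the series. They number 113 of the 317 genes with such a symbol and of 19938 genes measured. Total RNA was taken from pre-B cells carrying BCR-ABL1, a fusion kinase found in Philadelphia chromosome-positive acute lymphoblastic leukaemia. All 6 samples were from mice of the mixed strain C57Bl/6-SV129j, 3 with the genotype Dusp6 WT and 3 with Dusp6 KO, and every sample carried BCR-ABL1. The labels read here state neither the age of the mice, nor the deleted part of Dusp6, nor whether the 3 samples of a genotype were separate cultures or animals. The p-values therefore weigh the genotypes against a sample-to-sample spread that may be technical. The transformed cells were measured in bulk, so fewer cells of a type and less RNA per cell cannot be told apart.

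Most proteins of this family carry tandem C2H2 zinc fingers, small folds held by a zinc ion that read DNA, and a few bind RNA or other proteins instead. Many also carry a KRAB domain, which recruits the corepressor Trim28 and with it the histone methyltransferase Setdb1, and such genes often stand side by side in clusters along a chromosome. The best known task of KRAB zinc finger proteins is to silence retroviral and other repeated sequences. Dusp6 itself encodes a phosphatase that switches ERK off.

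The members were chosen by their mean signal over both genotypes. Those means ran from 10.05 to 13.9 with a median of 10.6, and they depend on the probes of each gene as well as on its RNA, so they are not compared between genes. Just above the limit lay Zfp74 (10.05), Zfp329 (10.06) and Zfp369 (10.07), and just below it Zfp691 (9.997), Zfp382 (9.97) and Zfp740 (9.96). The mean of Dusp6 KO lay under 10 in 3 members and that of Dusp6 WT in 0, and 2 of these 3 are called below. The rule left out 5 genes by name (Zfp36, Zfp600, Zfp979, Zfp980 and Zfp985), of which Zfp36 alone had a mean of at least 10 (10.78). This left 199 Zfp genes with a mean under 10.

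Dusp6, which checks the labels, had a log2 signal of 12.44 ± 0.072 on the Dusp6 WT arrays and 9.08 ± 0.058 on the Dusp6 KO arrays (SD, n = 3 each). For the labelled cell type, the mean over 9 measured B lineage markers was 13.2 on each Dusp6 WT array and 13.1 on each Dusp6 KO array. Of the 9, 1 was called higher (Rag1, log2 difference 0.20) and 2 lower (Blnk, −0.23, and Vpreb1, −0.27). Over all genes 9.66% were called higher and 10.2% lower. The other 6, among them Cd79a, Ebf1 and Igll1, did not pass. The array means of other marker lists were 7.43 to 7.61 for T and NK cells (8 genes), 7.40 to 7.52 for myeloid and mast cells (8 genes), 7.72 to 7.84 for erythroid cells and megakaryocytes (5 genes) and 8.06 to 8.16 for stromal cells (8 genes). Array signals of different genes are not on 1 scale, so these levels do not show whether such cells were present. In these 4 lists 3 genes were called higher and 0 lower, beside 9.66% higher and 10.2% lower over all genes. They were Klrd1 (log2 difference 0.61), Lyz2 (0.70) and Fn1 (0.22), and their part in the results below was not tested. In each of the T and NK, myeloid and mast, and stromal lists the other 7 genes did not pass.

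The sequences that stand before the members are shown for the 3 largest rises and 3 largest falls among called members with exactly 1 listed promoter window (Zfp407 was not considered). Each is the 250 bases before the annotated start, 5′ to 3′ on the gene's strand, from RefSeq on GRCm38.p6. They lie at chr17:21707491-21707740 (+ strand) for Zfp760, chr17:22361401-22361650 (- strand) for Zfp944, chr8:71950816-71951065 (+ strand) for Zfp961, chr12:116047474-116047723 (+ strand) for Zfp386, chr5:105876318-105876567 (+ strand) for Zfp326 and chr7:29954066-29954315 (- strand) for Zfp74. Capitals mark a match to 1 of 7 motifs on either strand: CCGGAAG (ETS factors), GGGCGG (SP and KLF factors), CCAAT (NFY), the NRF1 motif by name, CACGTG (E-box), TGACGTCA (CRE) and AAGATGGCG (YY1).
Zfp760: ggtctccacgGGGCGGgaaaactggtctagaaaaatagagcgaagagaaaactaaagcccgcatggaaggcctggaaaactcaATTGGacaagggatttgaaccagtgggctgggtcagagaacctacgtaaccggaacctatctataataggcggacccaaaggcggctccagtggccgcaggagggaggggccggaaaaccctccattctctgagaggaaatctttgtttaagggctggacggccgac
Zfp944: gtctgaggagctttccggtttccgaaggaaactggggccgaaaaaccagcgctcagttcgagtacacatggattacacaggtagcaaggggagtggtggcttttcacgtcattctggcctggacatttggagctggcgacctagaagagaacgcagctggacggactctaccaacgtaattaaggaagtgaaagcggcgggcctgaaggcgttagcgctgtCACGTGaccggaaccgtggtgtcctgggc
Zfp961: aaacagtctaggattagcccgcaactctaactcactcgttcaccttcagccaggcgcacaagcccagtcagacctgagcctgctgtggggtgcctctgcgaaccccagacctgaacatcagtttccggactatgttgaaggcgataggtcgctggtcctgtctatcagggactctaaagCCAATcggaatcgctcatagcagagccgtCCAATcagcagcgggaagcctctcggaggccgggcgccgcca
Zfp386: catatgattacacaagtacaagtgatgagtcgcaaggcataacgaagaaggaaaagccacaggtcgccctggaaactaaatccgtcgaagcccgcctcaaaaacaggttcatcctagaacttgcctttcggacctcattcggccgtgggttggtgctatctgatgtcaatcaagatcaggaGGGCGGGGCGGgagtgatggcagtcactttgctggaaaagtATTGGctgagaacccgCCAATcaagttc
Zfp326: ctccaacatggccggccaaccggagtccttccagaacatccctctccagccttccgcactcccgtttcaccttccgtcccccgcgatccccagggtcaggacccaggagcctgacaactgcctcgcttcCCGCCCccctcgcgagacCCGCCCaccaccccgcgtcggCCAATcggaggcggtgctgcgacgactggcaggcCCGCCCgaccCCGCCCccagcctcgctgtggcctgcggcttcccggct
Zfp74: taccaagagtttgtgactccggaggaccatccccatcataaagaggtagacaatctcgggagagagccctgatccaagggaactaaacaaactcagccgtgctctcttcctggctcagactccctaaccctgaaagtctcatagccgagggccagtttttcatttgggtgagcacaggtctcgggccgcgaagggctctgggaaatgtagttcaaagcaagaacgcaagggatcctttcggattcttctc
Matches to GGGCGG stand in the windows of Zfp760 (1), Zfp386 (2, overlapping each other) and Zfp326 (4), and matches to CCAAT in those of Zfp760 (1), Zfp961 (2), Zfp386 (2) and Zfp326 (1). The window of Zfp944 holds 1 E-box, and that of Zfp74 holds 0 of the motifs.

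Among all members, 90 had at least 1 RefSeq window of 300 bases (250 before the start and 50 after), 110 windows in all. The motif CCAAT stood in 55 of them, against 37.9% of the 6953 windows of other genes with a mean of at least 10 and 37.4% of all 32851 windows. CCGGAAG stood in 19.1% of the members' windows, 21.1% of those of other bright genes and 8.86% of all. GGGCGG stood in 56.4%, 65.5% and 35.7%, and the NRF1 motif in 12.7%, 12.1% and 4.60%. CACGTG stood in 7.27%, 11.1% and 7.15%, TGACGTCA in 5.45%, 3.22% and 1.79%, and AAGATGGCG in 3.64%, 3.80% and 1.40%. The median GC content of the members' windows was 56.5%, below the 61.7% of other bright genes and above the 52.7% of all windows. The windows of members called higher are only 10 from 8 genes and those called lower 20 from 18 genes. CCAAT stood in 7 and 12 of them, GGGCGG in 5 and 14, and CCGGAAG in 2 (both of 1 gene) and 3. These are descriptions of letters, with no test.

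Of the 113 members, 11 rose and 22 fell in Dusp6 KO cells (limma with Benjamini-Hochberg adjustment over 19938 genes, adjusted p under 0.05), and 80 did not pass. That is 9.73% higher and 19.5% lower. Over all genes 9.66% were called higher and 10.2% lower, and over the 6656 other genes with a mean of at least 10, 13.2% and 16.2%. The share of members called either way (29.2%) therefore lay near that of other bright genes (29.4%) and above that of all genes (19.8%). Of the dimmer Zfp genes 15.1% were called higher and 18.1% lower, 33.2% in all. The difference was above 0 in 49.6% of the members, 46.0% of the other bright genes, 49.7% of the dimmer Zfp genes and 50.8% of all genes. The members' median difference was −0.017 on the log2 scale, beside −0.012 for other bright genes and 0.0018 for all genes. Their median absolute difference was 0.11, beside 0.089 and 0.071.

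All changes among the members were small. The largest rise was 1.53-fold and the largest fall 1.43-fold, and 0 members passed 2-fold. Of the other bright genes 1.28% did, of the dimmer Zfp genes 4.52% and of all genes 1.29%. At a share as low as 1.28% few or no members would pass, so the 0 is not read as a trait. The limit on the mean of both genotypes can also leave out a gene that is bright in 1 genotype and changes strongly. Zfp827 had a mean of 10.56 in Dusp6 WT, 8.51 in Dusp6 KO and 9.53 over all arrays. Zfp709 had a mean of 9.69 over all arrays and rose by 2.39. The 3 Dusp6 WT and 3 Dusp6 KO values did not overlap in 65 members (57.5%), 22 of them (19.5%) with Dusp6 KO higher and 43 (38.1%) with it lower. The share of genes without overlap was 52.0% among other bright genes (22.6% higher, 29.3% lower), 42.7% among the dimmer Zfp genes (20.1% and 22.6%) and 35.7% among all genes (17.3% and 18.4%). With genes below the median signal left out before the adjustment, the members called higher numbered 18 and those lower 34. Of the 33 called members, 9 that rose and 14 that fell were called in all 13 alternative settings, and the other 10 lost their call in at least 1.

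**Figure D1:**
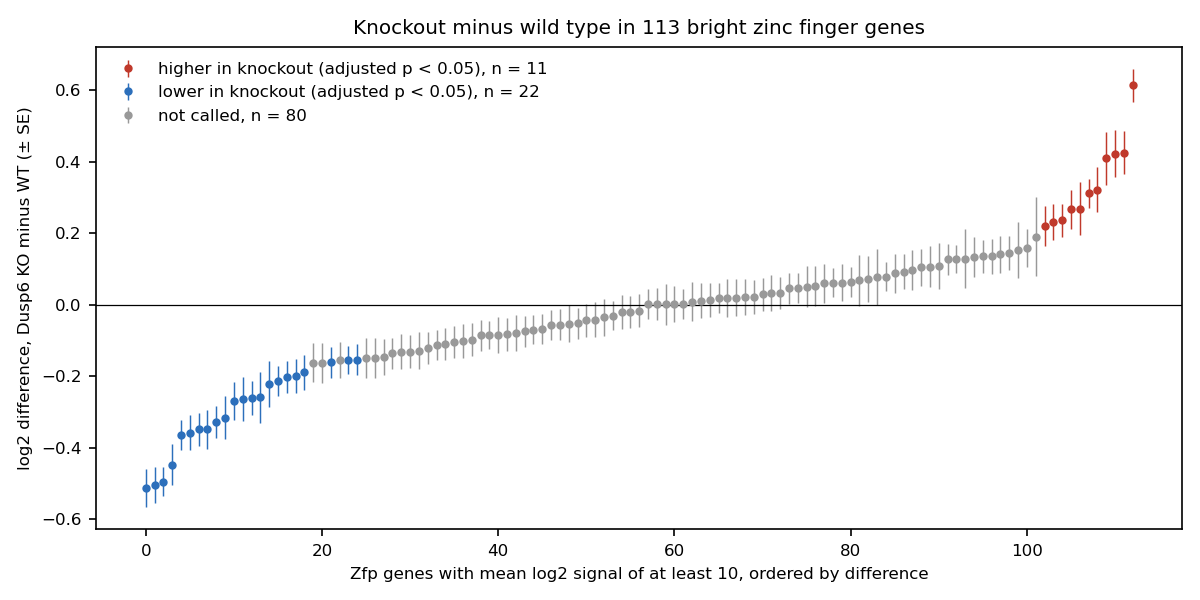
The log2 difference (Dusp6 KO minus Dusp6 WT, y axis) of each of the 113 bright zinc finger genes, ordered along the x axis, with bars of 1 standard error. The 11 red points were called higher, the 22 blue points lower, and the 80 grey points were not called. The differences run from −0.51 to 0.61.

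**Figure D2:**
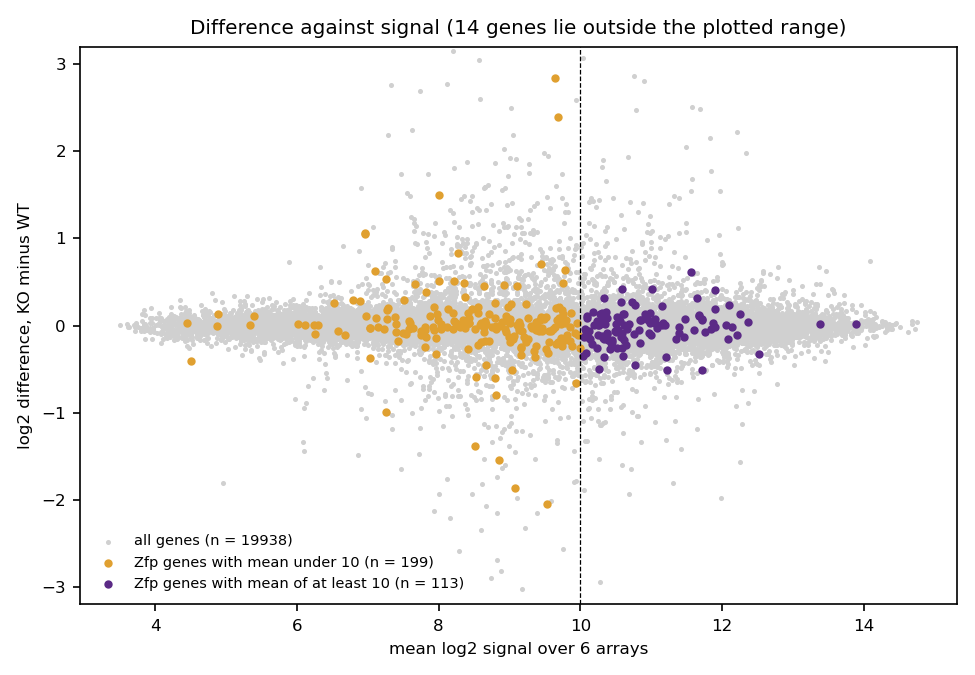
Mean log2 signal over the 6 arrays (x axis) against the log2 difference of Dusp6 KO minus Dusp6 WT (y axis) for all 19938 genes in grey, the 199 Zfp genes with a mean under 10 in orange and the 113 members in purple. The dashed line marks the limit of 10. No purple point lies past 1 on the log2 scale (2-fold), and 14 genes lie outside the plotted range of 3.2 either way.

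Zfp760 rose most. Its log2 signal was 11.27, 11.30 and 11.18 on the Dusp6 WT arrays and 11.84, 11.89 and 11.87 on the Dusp6 KO arrays, which leaves a wide gap between the groups (difference 0.61 ± 0.046, SE, 1.53-fold, limma adjusted p = 1.3e-05).

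Zfp938 gave 10.75, 10.79 and 10.85 in Dusp6 WT and 11.11, 11.33 and 11.22 in Dusp6 KO (difference 0.42 ± 0.060, limma adjusted p = 8.2e-04). Zfp944 gave 10.39, 10.31 and 10.44 against 10.67, 10.93 and 10.80 (0.42 ± 0.067, limma adjusted p = 0.0016). In both genes all Dusp6 KO values lay above all Dusp6 WT values, and Dusp6 KO replicate 1 was the lowest and replicate 2 the highest of its group. Zfp961 showed the same order, with 11.67, 11.63 and 11.79 against 11.96, 12.25 and 12.11 (0.41 ± 0.074, limma adjusted p = 0.0037).

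Zfp809, a KRAB protein that binds the primer binding site of murine leukaemia viruses and brings Trim28 there, had the tightest groups among the genes that rose. Its signal was 11.49, 11.52 and 11.49 in Dusp6 WT and 11.81, 11.84 and 11.79 in Dusp6 KO (difference 0.31 ± 0.040, 1.24-fold, limma adjusted p = 4.4e-04). Zfp781 rose by 0.32, Zfp51 by 0.27, Zfp942 by 0.27, Zfp599 by 0.24 and Zfp266 by 0.23. Zfp407, which is known to regulate transcription in fat cells, rose by 0.22, and its second probe set differed by 0.27. Zfp51 and Zfp407 lost their calls without any of several single arrays. For Zfp51 (limma adjusted p = 0.030) the adjusted p was 0.051 without Dusp6 WT replicate 1, 0.099 without replicate 2, 0.10 without Dusp6 KO replicate 2 and 0.059 without replicate 3. For Zfp407 (limma adjusted p = 0.023) it was 0.080 without Dusp6 WT replicate 1, 0.080 without replicate 3, 0.071 without Dusp6 KO replicate 2 and 0.065 without replicate 3.

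All 11 genes that rose had non-overlapping groups, and in 11 of 11 the highest Dusp6 KO value was that of replicate 2. Replicate 1 was the lowest in 10 of 11. Among the 22 genes that fell, Dusp6 KO replicate 2 was the lowest in 12 and the highest in 7. Among the 80 that did not pass, it was the lowest in 25 and the highest in 35. Without Dusp6 KO replicate 2, 10 members were called higher and 20 lower, and without replicate 1, 14 and 20.

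**Figure D3:**
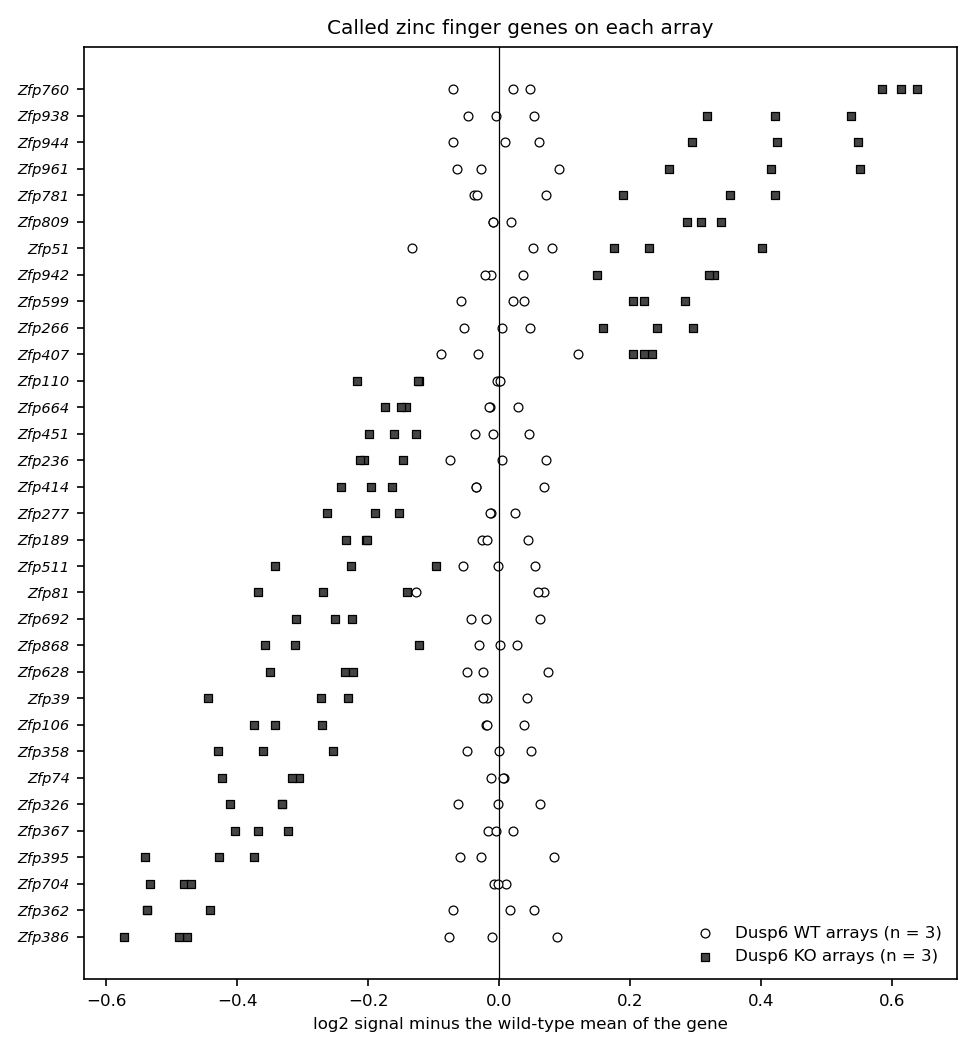
Each array's log2 signal minus the gene's Dusp6 WT mean (x axis) for the 33 called members (y axis, 1 row per gene). Open circles are the 3 Dusp6 WT arrays and filled squares the 3 Dusp6 KO arrays. In each row the groups do not overlap, and the Dusp6 KO values of several genes that rose are more spread than those of Zfp760 or Zfp809.

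Among the genes that fell, Zfp386, Zfp362 and Zfp704 changed most. Zfp386 gave 11.40, 11.57 and 11.47 in Dusp6 WT and 10.91, 11.01 and 10.99 in Dusp6 KO (difference −0.51 ± 0.054, 1.43-fold lower, limma adjusted p = 1.1e-04). Zfp362 gave 12.03, 11.99 and 11.90 against 11.53, 11.43 and 11.43 (−0.51 ± 0.050, limma adjusted p = 8.0e-05). In both genes every Dusp6 KO array lay below every Dusp6 WT array.

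Zfp704 and Zfp395 encode related proteins of a small family, and both fell. Zfp704 gave 10.50, 10.52 and 10.51 in Dusp6 WT and 10.03, 9.97 and 10.04 in Dusp6 KO (−0.50 ± 0.041, limma adjusted p = 2.2e-05). Zfp395, known for binding the regulatory region of the Huntington disease gene, gave 11.08, 10.96 and 10.93 against 10.62, 10.45 and 10.56 (−0.45 ± 0.058, limma adjusted p = 4.4e-04). The second probe set of Zfp395 differed by −0.45 as well, at a mean signal of 8.48.

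Zfp367 fell by 0.36, from 11.39 ± 0.019 in Dusp6 WT to 11.03 ± 0.041 in Dusp6 KO (SD, n = 3 each). Zfp74 fell by 0.35, Zfp358 by 0.35, Zfp39 by 0.32, Zfp628 by 0.27 and Zfp868 by 0.26, with limma adjusted p-values up to 0.015. Zfp868 lost its call without Dusp6 WT replicate 1 (adjusted p = 0.055) or Dusp6 KO replicate 3 (0.058). The remaining falls included Zfp692 (−0.26) and Zfp277 (−0.20), whose protein is known to work with Polycomb at the Cdkn2a locus. Zfp110 and Zfp664 gave the smallest called falls (−0.15 and −0.16). Zfp110 encodes a protein that binds the p75 neurotrophin receptor, and its call (limma adjusted p = 0.035) did not hold without any 1 array except Dusp6 KO replicate 1 (adjusted p from 0.050 to 0.13). Zfp664 (limma adjusted p = 0.023) kept its call without Dusp6 KO replicate 2 and lost it without any other 1 array (0.052 to 0.092). Zfp692, Zfp277, Zfp110 and Zfp664 were named after their values were seen.

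The role lists used here were written by hand and may miss members or roles. By these lists, 6 members act on RNA, ribosomes or the spindle. Of these 2 fell and 0 rose, a count too small to read against the 19.5% of all members and 16.2% of other bright genes that were called lower. Zfp326, a subunit of a complex that couples transcript elongation to splicing, gave 10.45, 10.57 and 10.51 in Dusp6 WT and 10.18, 10.10 and 10.18 in Dusp6 KO (−0.36 ± 0.048, limma adjusted p = 6.1e-04). Zfp106, an RNA-binding protein needed by motor neurons and muscle, gave 12.66, 12.72 and 12.66 against 12.41, 12.31 and 12.34 (−0.33 ± 0.045, limma adjusted p = 7.0e-04). In both genes the groups were well apart. The double-stranded RNA-binding gene Zfp346 (−0.11), the ribosome maturation gene Zfp622 (0.062), the RNA-binding gene Zfp638 (0.064) and Zfp207, which chaperones the spindle checkpoint protein Bub3 (0.018), did not pass. Zfp451, a SUMO ligase, fell by 0.16 (limma adjusted p = 0.029), but its adjusted p was 0.10 without Dusp6 WT replicate 2, 0.072 without replicate 3, 0.075 without Dusp6 KO replicate 1 and 0.079 without replicate 3.

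Of the 5 members that belong to corepressor complexes, 0 passed in limma over all genes, where 19.8% of all genes and 29.4% of other bright genes did, and 3 had an unadjusted p under 0.05. Zfp217 (0.14), Zfp281 (0.14), Zfp592 (−0.056), Zfp644 (−0.085) and Zfp687 (−0.13) had adjusted p-values from 0.073 to 0.44. Of the 12 measured genes of that list, which include dimmer ones that are no members, 2 fell: Zfp827 (−2.05) and Zfp521 (−1.55). Zfp592 and Zfp687 share a complex, and Zfp644 pairs with the histone methyltransferase Ehmt2. Of 7 activators and chromatin factors, Zfp407 rose and Zfp395 fell, as given above. Zfp148 (0.046), Zfp292 (0.071), Zfp335 (0.0012), Zfp384 (−0.021) and Zfp410 (−0.031), an activator of the remodeller gene Chd4, did not pass. Human ZNF384, the counterpart of Zfp384, is a known fusion partner in B cell leukaemia. Of the 2 members listed for silencing imprinted or viral sequences, Zfp809 rose and Zfp445, which protects imprints, did not pass (0.010, limma adjusted p = 0.92).

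The 80 members that did not pass had differences from −0.16 to 0.19, and 51 of them lay within 0.1 of 0 on the log2 scale. Their groups did not overlap in 32 genes, and 22 had an unadjusted p under 0.05. The groups of 35.7% of all genes and 52.0% of other bright genes, called or not, did not overlap. Shares among uncalled genes outside the members were not counted, so the 32 and 22 are not read as changes. The smallest differences were those of Zfp655 (6.7e-04), Zfp319 (0.0011), Zfp335 (0.0012), Zfp930 (0.0018) and Zfp983 (0.0022), each with a standard error between 0.042 and 0.058. Zfp983 showed how close these groups were, with 12.08, 12.02 and 12.07 in Dusp6 WT and 12.02, 12.08 and 12.08 in Dusp6 KO.

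Trim28 and Setdb1, the partners of KRAB proteins, differed by −0.12 (limma adjusted p = 0.14) and 0.011 (0.89). Of 33 measured genes for corepressors and heterochromatin factors, 4 rose and 3 fell, beside 9.66% higher and 10.2% lower over all genes. Most of the 33 had a mean of at least 10, and over other bright genes 13.2% were called higher and 16.2% lower. The median difference of the 33 was −0.043, beside −0.012 for other bright genes and 0.0018 over all genes. The DNA methyltransferase gene Dnmt3a rose by 0.54, the NuRD subunit gene Mta3 by 0.44 and Morc2a, which acts with the HUSH silencing complex, by 0.38. With the mean of all probe sets of a gene, the difference of Mta3 was 0.18 (limma adjusted p = 0.022). The NuRD remodeller gene Chd3 fell by 0.48. The limma adjusted p-values of Dnmt3a, Mta3, Morc2a and Chd3 ran from 2.1e-05 to 1.8e-04. The other called genes of the list were Morc3 (0.35), Dnmt3b (−0.33) and Uhrf1 (−0.23), so the DNA methyltransferase genes Dnmt3a and Dnmt3b went opposite ways. Morc3, Dnmt3b and Uhrf1 were named after their values were seen.

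Of the 11 genes that rose, 10 stood near another Zfp gene, and of the 22 that fell, 7 did. This was a property the choice of members had not used. A neighbour was another Zfp gene within 2 measured genes on either side in the RefSeq order of GRCm38.p6, a distance chosen after values had been seen. Of 55 members with such a neighbour, 10 rose (18.2%) and 7 fell (12.7%). Of 58 without one, 1 rose (1.72%, Zfp407) and 15 fell (25.9%). Over the alternative settings the members with a neighbour that were called higher numbered 9 to 14 and those without one 0 to 4. Over all genes 9.66% were called higher and 10.2% lower, and over other bright genes 13.2% and 16.2%. No test was made of this split.

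The Zfp genes with a mean under 10, which are not members, divided in a like way. With a neighbour, 26 of 122 rose (21.3%) and 18 fell. Without one, 4 of 76 rose (5.26%) and 18 fell (23.7%). The 5 genes left out by name are in none of these counts, though each could serve as a neighbour of a counted gene. All 5 fell: Zfp979 (−6.20), Zfp985 (−1.82), Zfp600 (−1.81), Zfp980 (−1.44) and the bright Zfp36 (−0.27). Their limma adjusted p-values ran from 6.9e-10 to 0.0019. The 26 became 15 without Dusp6 KO replicate 2 and 17 without Dusp6 KO replicate 3, and the 18 lower genes without a neighbour became 11 without Dusp6 WT replicate 1 or 2. With only the 1 adjacent gene on each side counted, 9 of 50 members with a neighbour and 2 of 63 without one rose, and 11 of the 94 dimmer genes without a neighbour rose in place of 4 of 76.

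**Figure D4:**
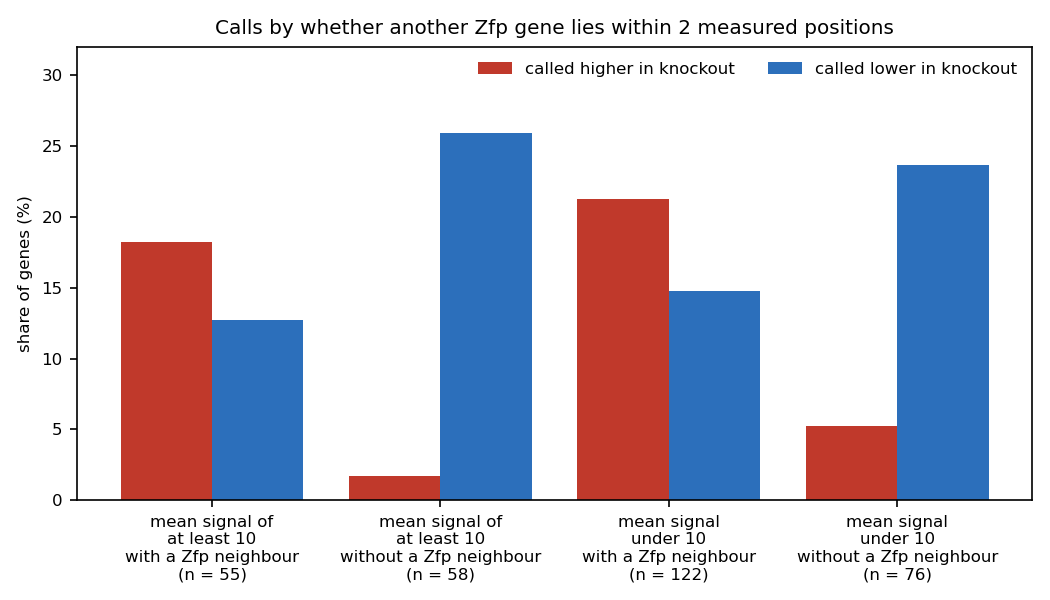
The share of Zfp genes called higher (red) and lower (blue) in Dusp6 KO cells (y axis, percent), for members and for Zfp genes with a mean under 10, each split by whether another Zfp gene lies within 2 measured positions (n under each pair of bars). Among members the higher share is 18.2% with a neighbour and 1.72% without, and among the dimmer genes 21.3% and 5.26%. Over all genes 9.66% were called higher and 10.2% lower. The 5 genes left out by name are not counted.

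When Zfp genes with at most 1 other measured gene between them were joined into runs, the 55 members fell into 31 runs. The 10 genes that rose lay in 5 of these runs, 7 other runs held the members that fell, and 0 runs held both. Many runs hold only 1 member and could not hold both, so this 0 is not read as a result. With dimmer Zfp genes counted, some runs held both, such as 1 of 13 Zfp genes on chromosome 7 (1 rose, 4 fell). The longest run with a member that rose held 16 Zfp genes on chromosome 17. Of the run's 7 members, 4 rose (Zfp51, Zfp760, Zfp942 and Zfp944) and 0 fell. Its members Zfp53 (0.14), Zfp52 (−0.13) and Zfp983 did not pass. Its other, dimmer genes went both ways: Zfp54 and Zfp943 rose by 0.17 and 0.45, and Zfp948 and Zfp947 fell by 0.37 and 0.32. Zfp943 and Zfp947 stand next to each other between Zfp942 and Zfp944, so the run did not move as 1 block.

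The other runs with a member that rose were short. On chromosome 10, Zfp781 and Zfp938 rose, and so did the dimmer Zfp873 between them (0.24). Gm10777, also between them and without a Zfp name, did not pass (0.094). Dusp6 itself is on chromosome 10, and the mice were of a mixed strain. Whether the genotypes differed in strain sequence at this run or the others was not tested. On chromosome 9, Zfp809 and Zfp599 rose side by side, with Zfp872 (0.30, limma adjusted p = 0.060) and Zfp810 (0.042) around them not passing. Between Zfp872 and Zfp809 stands 1810064F22Rik, a gene without a Zfp name, which rose by 0.48 (limma adjusted p = 0.0037). In a second run on chromosome 9, Zfp266 rose with its dimmer neighbour Zfp846 (0.49). On chromosome 8, Zfp961 stood at the end of a run in which Zfp709 rose by 2.39 and Zfp617 by 0.70, while Zfp882 fell by 0.45. The 23 members on chromosome 7, the most of any chromosome, gave 0 that rose and 4 that fell. Of all members 9.73% rose and 19.5% fell, and of all genes 9.66% and 10.2%. The 7 members on chromosome 6 gave 0 calls, beside 29.2% of all members and 19.8% of all genes. Counts this small cannot be read against those shares.

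**Figure D5:**
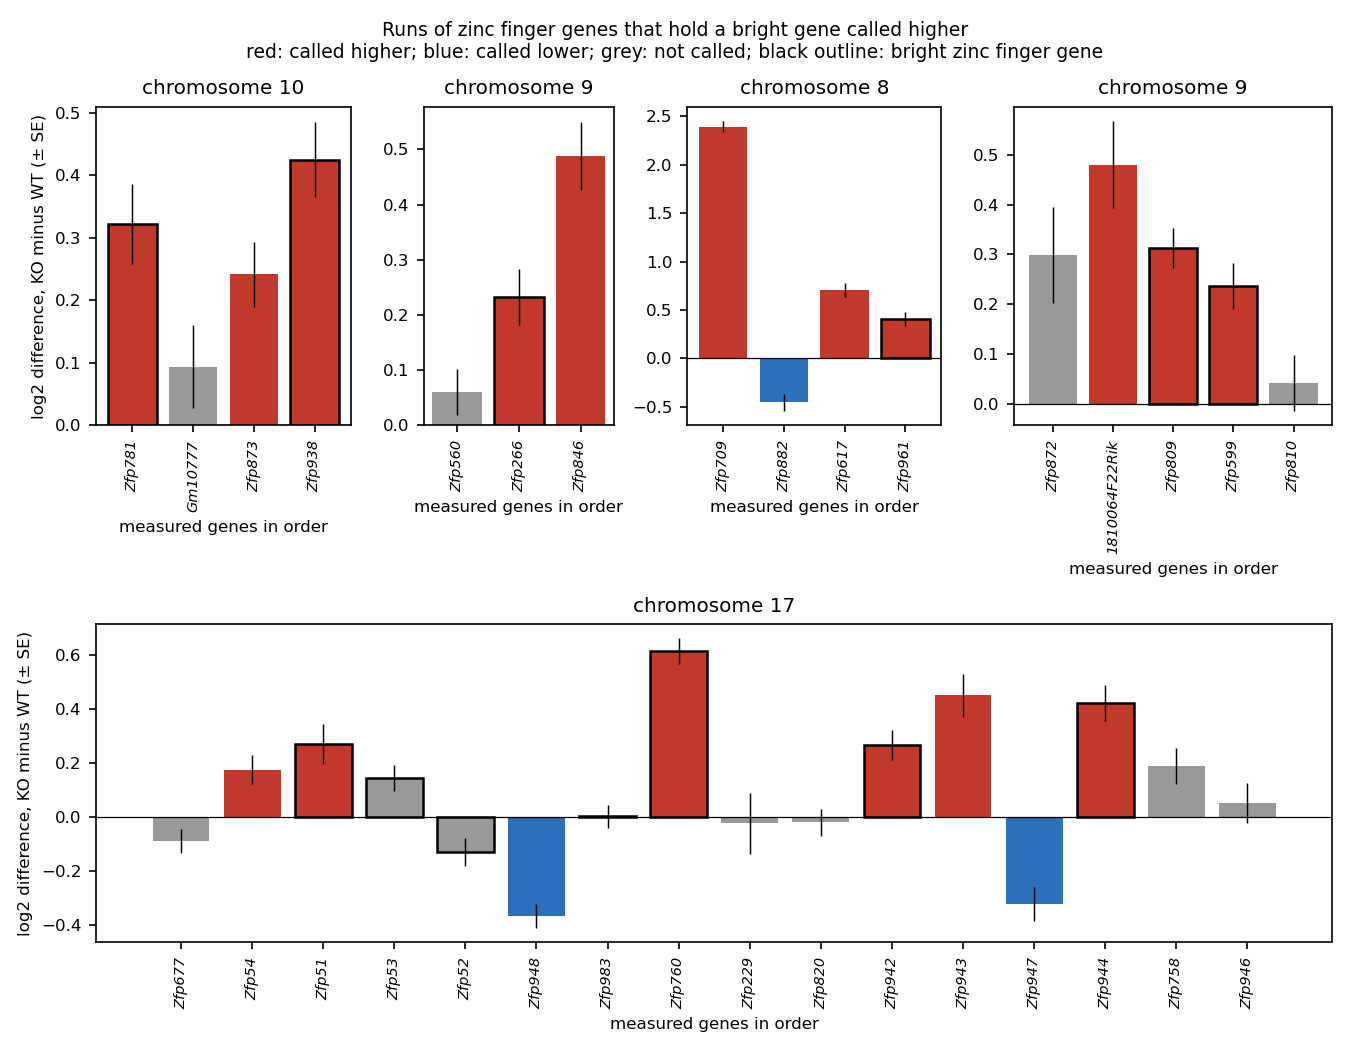
The log2 difference of Dusp6 KO minus Dusp6 WT (y axis, bars from 0 with 1 standard error; the scale differs between panels) for every measured gene, in chromosome order, of the 5 runs that hold a member called higher. Red bars were called higher, blue lower and grey not at all, and a black outline marks the members. The run on chromosome 17 holds red, blue and grey bars side by side, and Zfp709 on chromosome 8 has the tallest bar (2.39).

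Zinc finger genes of 1 run can be close in sequence, so their probes may share targets, which was not tested. There were 9 probe sets that carried several symbols including a member, and they were not used. They named Zfp51, Zfp646, Zfp935, Zfp971 and Zfp983. A second probe set with the member's symbol alone existed for 7 members. Its difference had the same sign as that of the probe set used in 7 of 7. The pairs were 0.11 and 0.12 for Zfp141, −0.45 and −0.45 for Zfp395, 0.22 and 0.27 for Zfp407, and −0.16 and −0.11 for Zfp664. For Zfp706, a small protein linked to the exit from stem cell self-renewal, the pair was 0.022 and 0.12, for Zfp825 it was 0.068 and 0.041, and for Zfp319 both lay within 0.01 of 0.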

How the data were processed

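Total RNA of 6 samples was hybridised to Affymetrix arrays. The authors deposited log2 signals per probe set. The submitters' processing notes name RMA (background correction, normalization and probe summary) and Partek 6.5, without RMA settings. That values are log2 follows from their range (3.23 to 14.8, array medians 8.38 to 8.42). Precision is limited by the number of arrays, with a median standard error of 0.049 over the members' differences.

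Of 35556 probe sets, 21789 carried 1 gene symbol, 1621 several and 12146 none. Each gene was represented by its single-symbol probe set of highest mean (19938 genes). All 113 members matched RefSeq (GRCm38.p6) by Entrez identifier. That table served for names and gene order only.

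Genotype was fitted for all genes on the 6 arrays by lmFit and eBayes of limma 3.58.1 (R 4.3.3), a step tested on simulated data. Members and lists were chosen with earlier results of these data known. The rule for named members took up to 12 called differences each way by size (12 falls and all 11 rises), members of role lists, those nearest the limit on either side, and the 5 smallest differences. For the partner list they were the 4 largest called differences. Others are said to have been chosen later or illustrate a run, a probe pair or the left-out genes. A planned sorting by protein motifs was not made, since protein sequences were not used here. The alternatives were repeated quantile normalization, median centring, dim genes left out, the mean of a gene's probe sets, every probe set tested, trend and robust options, a replicate block and each array left out.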

Additional observations from a re-analysis of the deposited data

How the results depend on the processing

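Members called higher numbered 9 to 14 and those lower 16 to 20 with any 1 array left out, beside 11 and 22. Genes below the median signal left out gave 18 and 34 among 9969 genes tested, and trend and robust options gave 17 and 29. The counts stayed within 1.5 times under repeated quantile normalization, centring, the mean of all probe sets, and every probe set tested. With the replicate number as a block, 10 members were called higher and 19 lower. The labels' numbers were not taken to pair the samples, since the deviations of same-numbered arrays correlated at 0.0098, −0.12 and 0.053. Calls over all genes stayed within 1.5 times in every setting run (1491 to 2189 higher, 1512 to 2411 lower). No called member changed sign in any setting.

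The split by neighbour rests on small counts. Members with a neighbour called lower (7) numbered 13 with dim genes left out, 11 with trend and robust options, 3 with every probe set tested, and 4 to 7 with 1 array left out (4 without Dusp6 WT replicate 1, Dusp6 WT replicate 2 or Dusp6 KO replicate 3). Members without a neighbour called higher (1) numbered 3 with repeated quantile normalization, 4 with dim genes left out, 2 with the mean of all probe sets, 0 with every probe set tested, 3 with trend and robust options, 0 to 1 with 1 array left out, and 2 or 0 with 1 or 5 positions on each side. Dimmer Zfp genes with a neighbour called higher (26) numbered 14 with dim genes left out, 15 with every probe set tested, and 15 to 27 with 1 array left out. Those without a neighbour called higher (4) numbered 1 with dim genes left out and 11 with 1 position on each side, and those called lower (18) numbered 9 with every probe set tested and 11 to 18 with 1 array left out. Settings with more or fewer genes tested change the adjustment by construction. With dim genes left out, Zfp genes below the median signal of all genes were not tested either. They left the counts of dimmer Zfp genes, so those drops are not lost calls alone. For the other settings the cause was not tested. The settings of this paragraph were applied to the split after the data were seen.

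Several uncalled members named with differences near 0 changed sign. With arrays centred on their median the differences were −0.0106 for Zfp319, −0.0105 for Zfp335, −0.00151 for Zfp445, −0.0110 for Zfp655, −0.00984 for Zfp930, −0.00951 for Zfp983. With 1 array left out they ranged from −0.00185 to 0.0313 for Zfp207, −0.0317 to 0.0301 for Zfp319, −0.0557 to 0.0457 for Zfp335, −0.0232 to 0.0534 for Zfp445, −0.0201 to 0.0222 for Zfp655, −0.0389 to 0.0404 for Zfp930, −0.0151 to 0.0217 for Zfp983. Zfp706 was −0.0194 without Dusp6 KO replicate 2. Zfp292 kept its sign but was 0.0032 without Dusp6 KO replicate 2 and 0.13 without replicate 1, Zfp384 ranged from −0.0435 to −0.0026, and Zfp410 was −0.0138 without Dusp6 KO replicate 2. Signal over background was not analysed here, so which dim values lie near background is unknown.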
